A study of Mus musculus with 4 samples.

Results

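The solute carriers described here move inorganic ions and metals across cell membranes: bicarbonate, protons, chloride, sulphate, sodium, potassium, calcium, phosphate, magnesium, zinc and iron. They were taken by symbol alone, as every gene on the array in the families Slc4, Slc8, Slc9, Slc12, Slc20, Slc24, Slc26, Slc30, Slc39, Slc40 and Slc41. Within these families no measured value was used except the brightness that picked 1 probe per gene, but the families were chosen with earlier results of these data known. These 11 families held 77 genes on 111 probes, out of 24357 named genes on the array. Of the 77 genes, 64 were bright enough to be tested, out of 18161 genes tested in all.

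The RNA came from ureters dissected from NMRI mouse embryos at E18.5, and each of 4 arrays in 2 colours carried a mutant RNA beside a control RNA. The mutant, cKO below, carried Pax2-cre on one chromosome and 2 floxed alleles of Trp63 (dN-flox), an allele made to remove ΔNp63, the p63 form of basal epithelial cells. The control carried dN-flox on at least 1 allele, with no cre in its label. Pax2 is a gene of the nephric duct and of the ureteric epithelium that grows from it, whereas the dissected ureter also holds muscle, connective tissue, vessels and blood. Array 2 held a male pair and arrays 1, 3 and 4 held female pairs, and the cKO was in the red channel on arrays 1 and 3 and in the green channel on arrays 2 and 4. The labels do not say whether an RNA came from 1 embryo or from several, so each p-value measures the spread between these 4 pairs.

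The urothelium that lines the ureter holds back urine whose salt, acid and metal content differs from that of blood. Carriers differ from pumps and channels in that they couple the movement of 1 solute to another or to its own gradient. Slc9 proteins trade sodium for protons, and most Slc4 and Slc26 proteins move bicarbonate or other anions. Slc12 proteins carry chloride with cations, and Slc8 and Slc24 proteins expel calcium in exchange for sodium. Slc30 proteins lower cytosolic zinc and Slc39 proteins raise it, while Slc40a1, ferroportin, is the exporter through which cells release iron. None of these families is specific to urothelium, and muscle, connective tissue, blood cells and nerves of the ureter wall use them too.

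All values below are differences on the log2 scale, cKO over control within an array, given as the mean ± SD over 4 arrays, and levels are normalised log2 intensities of single RNAs. A gene was called higher or lower at an adjusted p under 0.05 in limma, adjusted by Benjamini-Hochberg over the 18161 genes. Trp63 itself had ratios of -2.86, -1.68, -2.03 and -2.13 on arrays 1 to 4 and fell 4.52-fold (-2.18 ± 0.50, adjusted p = 0.00207). Of 12 basal urothelial markers tested, a list that holds Trp63 itself, 10 fell, with a median of -1.81. Of 12 superficial and intermediate markers 2 fell (median -0.46), whereas 0 of 10 smooth muscle markers were called (median 0.15). The defining markers of the labelled tissue were present: all 12 markers of each urothelial list and all 10 smooth muscle markers were bright enough to be tested. Ratios correlated between arrays with Pearson r of 0.53 to 0.73 over all genes tested and of 0.49 to 0.71 over the carriers. In whole ureters, fewer cells of a type and less RNA per cell cannot be told apart.

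With 1 probe per gene, the largest mean ratios among the carriers belonged to an iron exporter and to 1 of 12 tested zinc importers. Ferroportin Slc40a1 rose 2.26-fold in the cKO, and the zinc importer Slc39a4 fell 1.98-fold. The anion exchanger family gene Slc26a10 rose 1.19-fold, close to the threshold. The other 61 tested carriers did not pass. So 2 carriers rose and 1 fell, 4.69% of 64, where 2.92% of all genes tested rose, 5.63% fell and 8.55% changed in either direction. As a group the carriers' share of calls was not above that of all genes, and the median carrier ratio was 0.03 beside 0.00 for all genes. The median size of a carrier's ratio, regardless of sign, was 0.11 beside 0.08.

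The intervals show how large a change could have been missed. For 56 of the 64 carriers (87.5%, and 87.1% of all genes) the 95% interval of the ratio lay within 1.41-fold of no change, and for 61 (95.3%, and 96.8% of all genes) within 2-fold. A mean ratio of at least 2-fold was seen in 1 carrier and of at least 1.5-fold in 2, beside 1.61% and 4.43% of all genes. The sign was the same on all 4 arrays for 25 carriers, 10 above 0 and 15 below, which is 39.1% beside 30.6% of all genes. At an unadjusted p under 0.05 stood 16 carriers, 9 higher and 7 lower (25% beside 23.7%). Control and cKO levels did not overlap for 7 carriers (10.9% beside 9.84%): Slc40a1, Slc24a3, Slc8a1, Slc26a6 and Slc39a13 were higher in the cKO, and Slc4a8 and Slc30a7 lower. Fitted as separate channels with the array as a replicate block, 7 carriers rose and 4 fell, and without that block 1 rose and 0 fell, with 16.3% and 3.07% of all genes called.

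**Figure D1:**
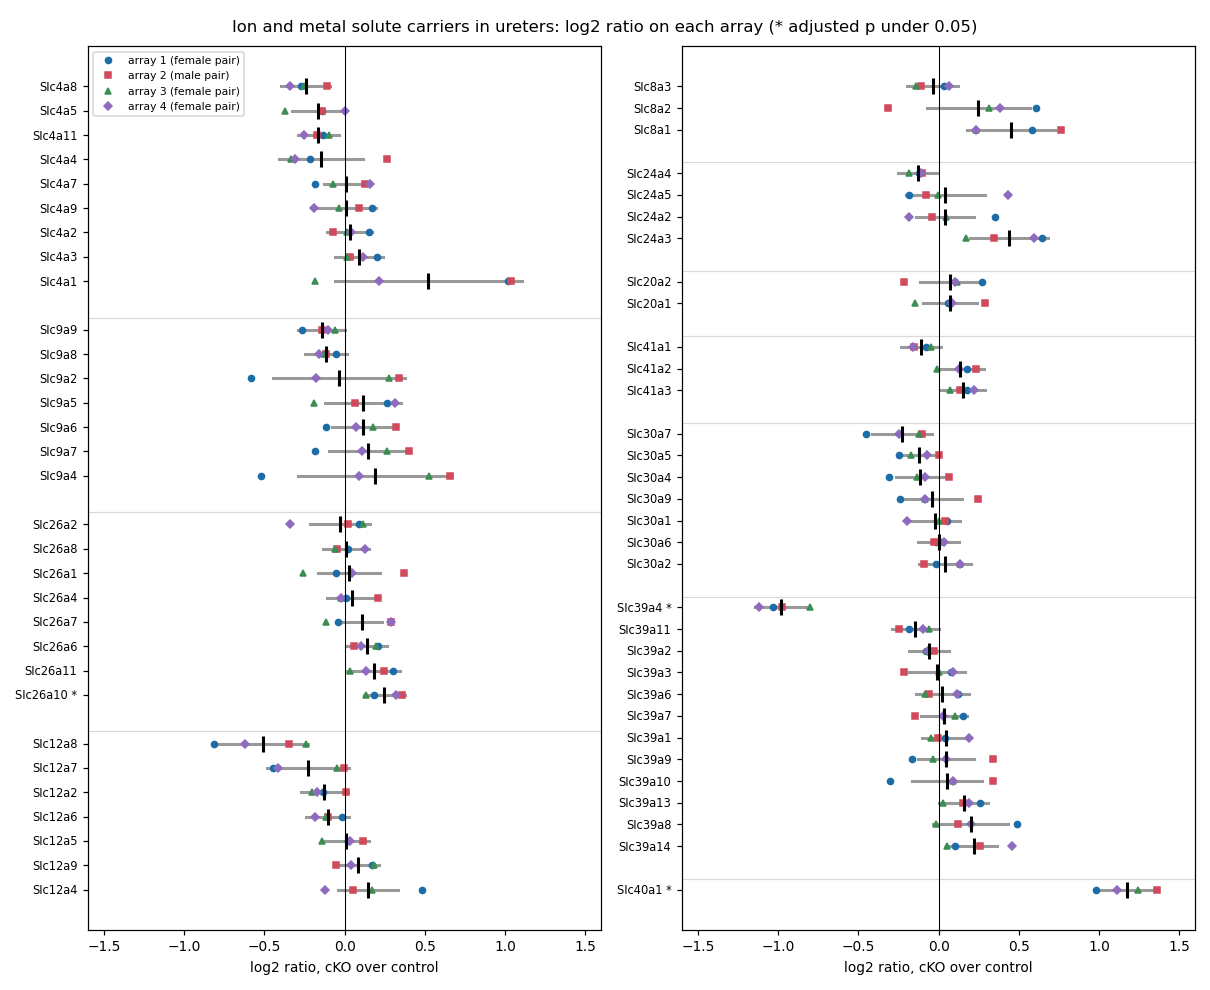
Log2 ratio (cKO over control) of 63 of the tested carriers, grouped by family, with 1 point per array, a black tick at the mean of 4 arrays and a grey bar for the 95% interval. Slc40a1 stands apart to the right and Slc39a4 to the left, and most other carriers lie within 0.5 of 0 on all arrays.

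Slc40a1, the iron exporter, had control levels of 13.89, 13.89, 13.88 and 14.03 and cKO levels of 14.88, 15.25, 15.12 and 15.14 on arrays 1 to 4. All 4 cKO RNAs were above all 4 controls, and the controls lay close together. The ratios were 0.98, 1.36, 1.24 and 1.11, a mean of 1.17 ± 0.16 with a 95% interval of 0.99 to 1.36 (adjusted p = 0.00163, limma). The male pair on array 2 gave the highest of the 4 ratios, and the spread among the 3 female pairs reached from 0.98 to 1.24. With any array left out the ratio stayed between 1.11 and 1.24, with adjusted p-values of 0.00558 to 0.00860. The value comes from 1 probe, chr1:45965255-45965314 in the array's mm9 coordinates.

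Markers of iron-handling cell types moved beside Slc40a1 in part. Ferroportin is abundant in macrophages that recycle iron, in the absorptive epithelium of the intestine, in liver and in erythroid cells. Of 9 leukocyte and macrophage markers tested, 0 were called, with a median of -0.05, and their summed intensity was 33172 to 46442 in controls and 33606 to 46506 in the cKO. Of 13 erythroid markers 1 rose, the beta globin Hbb-b2, and the array medians were 0.49, 0.48, -0.11 and 0.17. Of 12 hepatocyte markers 5 rose (Ahsg, Afp, Fgg, Fgb and Apoa1), and the array medians of the list were 2.06, 2.55, 1.30 and 0.39. The summed intensity of the 12 was 37558 to 72312 in controls and 39264 to 293448 in the cKO. Trf was the brightest of them in controls, at 14.60 to 15.04, and stood at 13.13 to 15.70 in the cKO. With -0.56 ± 1.19 it was the only hepatocyte marker with a mean below 0. Slc40a1 itself had ratios of 0.98, 1.36, 1.24 and 1.11 on arrays 1 to 4. It and the hepatocyte median were both highest on array 2, while Slc40a1 was lowest on array 1 and the hepatocyte median on array 4. Of 10 intestinal epithelium markers 3 rose and 1 fell. The fatty acid binding protein Fabp1 rose 5.56-fold, with ratios of 1.98, 2.91, 2.18 and 2.83, Phgr1 rose 3.99-fold with control RNA well above background on 1 of 4 arrays, Lgals4 rose 2.07-fold and Fabp2 fell 1.26-fold. The list median was 0.06, and its summed intensity was 31007 to 41036 in controls and 29056 to 54425 in the cKO. Krt20, also on the superficial urothelial list, was its brightest gene, at 14.71 to 15.14 in controls and 14.55 to 15.41 in the cKO. The next brightest, Lgals4, stood at 11.27 to 11.63 and 11.51 to 12.86, so the sum mostly reflects Krt20. The intestinal transcription factor Cdx2 was not bright enough to be tested. Cdx1 had a ratio of -0.03 ± 0.05 at dim levels of 6.46 to 7.04 in controls and 6.48 to 7.04 in the cKO. The part of hepatocyte, erythroid or intestinal RNA in the Slc40a1 ratio was not tested.

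The genes that work with ferroportin gave smaller values. Ceruloplasmin (Cp), the copper enzyme that oxidises exported iron, rose 1.43-fold (0.52 ± 0.26, adjusted p = 0.0363), with ratios of 0.32, 0.90, 0.48 and 0.38. Transferrin receptor 2 (Tfr2), an iron sensor of liver and erythroid cells, rose 1.30-fold (0.37 ± 0.16, adjusted p = 0.0470), with ratios of 0.46, 0.56, 0.20 and 0.28. Liver expresses Cp and Tfr2, so the hepatocyte medians above stand beside these values too, and both calls were lost when single arrays were left out, with adjusted p-values up to 0.128 and 0.181. Another ferroxidase, Heph, had a ratio of -0.18 ± 0.13 (adjusted p = 0.161). The importer of transferrin-bound iron, Tfrc, had -0.14 ± 0.26 (0.508), and the iron and manganese importer Slc11a2 had 0.01 ± 0.08 (0.969). The ferritin genes Fth1 and Ftl1, whose protein stores iron, had 0.03 ± 0.13 (0.857) and -0.07 ± 0.20 (0.567). Hamp, the hormone that removes ferroportin from the membrane, was not bright enough to be tested.

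Slc39a4 encodes ZIP4, a zinc importer of the plasma membrane whose loss causes the zinc deficiency acrodermatitis enteropathica in humans. Its control levels were 10.88, 11.86, 11.31 and 11.62, and its cKO levels were 9.84, 10.89, 10.51 and 10.49. The groups overlapped, since the control of array 1 was just below the cKO of array 2, while on each array the cKO was the lower RNA. The ratios were -1.04, -0.98, -0.80 and -1.12, a mean of -0.98 ± 0.13 with a 95% interval of -1.15 to -0.82 (adjusted p = 0.00179, limma). With any array left out the ratio stayed between -1.04 and -0.93. The call was lost in 1 of 17 alternatives, the fit of separate channels with no replicate block, where the adjusted p was 0.158. Its single probe lies at chr15:76442866-76442925 (mm9). Basal urothelial markers were lower by similar amounts on all arrays (medians -1.89, -1.63, -1.79 and -1.84), and superficial markers by uneven amounts (-0.99, -0.08, -0.25 and -0.60). ZIP4 is also a carrier of the absorptive intestine, whose markers are given above. The part of any of these cell populations in the Slc39a4 ratio was not tested.

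**Figure D2:**
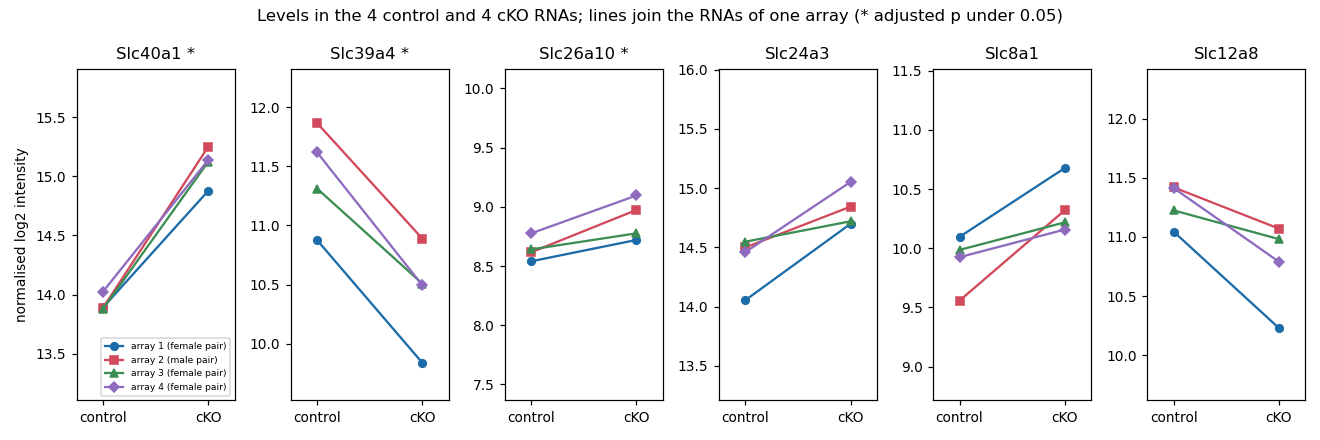
Normalised log2 intensity of 6 carriers in the 4 control and 4 cKO RNAs, with a line joining the 2 RNAs of an array; every panel spans the same number of log2 units. Lines run steeply up for Slc40a1 and steeply down for Slc39a4, and those of Slc26a10, Slc24a3, Slc8a1 and Slc12a8 run the same way on all arrays with smaller or less even steps.

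The other zinc carriers gave no call. Of 24 zinc carriers on the array 19 were tested, 12 importers of the Slc39 family and 7 exporters of the Slc30 family, and 18 of the 19 did not pass. Among the importers the next lowest p belonged to Slc39a14 (ZIP14), which also carries iron and manganese: 0.10, 0.26, 0.05 and 0.46, a mean of 0.22 ± 0.18 (adjusted p = 0.0961). Its cKO levels of 12.04 to 12.28 overlapped the control levels of 11.82 to 12.14. Its relative Slc39a8 (ZIP8), with the same range of metals, had 0.20 ± 0.21 (0.279). Slc39a13 (ZIP13), a zinc carrier of connective tissue cells, had non-overlapping levels and a ratio of 0.16 ± 0.09 (0.203). The remaining importers lay between -0.15 (Slc39a11) and 0.05 (Slc39a10), and 8 of the 12 Slc39 genes were above 0.

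Of the 7 Slc30 exporters 5 had ratios below 0 and 0 passed, among them those that load zinc into the secretory pathway. Slc30a7 (ZnT7) had control levels of 11.82 to 11.87 and cKO levels of 11.37, 11.77, 11.70 and 11.58, all below the controls. Its ratios were -0.45, -0.10, -0.12 and -0.24, a mean of -0.23 ± 0.16 (adjusted p = 0.141). Its other 2 probes gave -0.05 ± 0.23, with 0.29 on array 2, and -0.52 ± 0.55, with 0.11 on array 3, so its value depends on the probe. Slc30a5 (ZnT5) had -0.12 ± 0.11 (0.240) and Slc30a4 (ZnT4) had -0.12 ± 0.16 (0.332). Slc30a6 (ZnT6), partner of ZnT5, had 0.00 ± 0.03 (0.992), the evenest of the exporters over the 4 arrays.

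Slc30a1, the zinc exporter of the plasma membrane, and the zinc-binding metallothioneins Mt1 and Mt2 are known targets of MTF1, a transcription factor that zinc activates, and so are shown as sequences. The promoter windows are from RefSeq on GRCm38.p6, from 250 bases before to 50 after the start of the gene. Matches to TGCNCNC, on either strand, are in capitals. This pattern is looser than the metal response element core TGCRCNC, where R is A or G.
Slc30a1 chr1:191906531-191906830 (+): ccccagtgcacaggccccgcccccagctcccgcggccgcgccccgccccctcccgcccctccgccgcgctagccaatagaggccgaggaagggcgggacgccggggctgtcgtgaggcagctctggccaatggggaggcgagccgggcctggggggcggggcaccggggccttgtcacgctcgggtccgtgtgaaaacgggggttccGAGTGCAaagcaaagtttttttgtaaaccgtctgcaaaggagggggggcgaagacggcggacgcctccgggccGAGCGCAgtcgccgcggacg
Mt1 chr8:94178839-94179138 (+): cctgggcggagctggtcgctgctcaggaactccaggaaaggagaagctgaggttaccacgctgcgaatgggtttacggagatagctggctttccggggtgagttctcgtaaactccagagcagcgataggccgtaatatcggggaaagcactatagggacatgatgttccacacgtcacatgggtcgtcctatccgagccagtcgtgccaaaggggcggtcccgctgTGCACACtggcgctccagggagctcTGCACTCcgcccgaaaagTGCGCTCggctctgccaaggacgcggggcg
Mt2 chr8:94172368-94172667 (+): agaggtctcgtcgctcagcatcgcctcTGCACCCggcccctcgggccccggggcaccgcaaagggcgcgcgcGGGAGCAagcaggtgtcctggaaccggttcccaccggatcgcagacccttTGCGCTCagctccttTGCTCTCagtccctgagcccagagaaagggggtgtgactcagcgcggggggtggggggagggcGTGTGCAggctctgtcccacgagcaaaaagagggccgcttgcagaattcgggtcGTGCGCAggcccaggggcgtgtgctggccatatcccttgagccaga
The window of Slc30a1 held 2 such matches, that of Mt1 held 3 and that of Mt2 held 6. In Mt2, TGCTCTC and GGGAGCA match only the looser pattern. At least 1 match to the looser pattern stood in 51.0% of all 32851 promoter windows, at least 3 in 7.10% and at least 5 in 0.697%. RefSeq windows were found for 59 of the 77 carriers, and 50 of their 75 windows (66.7%) held a match. A match is a run of letters and not a measured binding site. In the arrays Slc30a1 had ratios of 0.05, 0.04, 0.00 and -0.20 (mean -0.03 ± 0.12, adjusted p = 0.863). Mt1 had -0.32, 0.62, 0.75 and 0.45 (0.38 ± 0.48, adjusted p = 0.273), and Mt2 had -0.11, 0.93, 1.11 and 0.73 (0.66 ± 0.54, adjusted p = 0.121). Both metallothioneins were below 0 on array 1 and above 0 on the other 3, and neither passed. Mtf1 itself had a ratio of -0.02 ± 0.11 (0.893).

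Of 7 calcium exchangers tested, 3 in the Slc8 family and 4 in the Slc24 family, 5 had ratios above 0 and 0 were called. Slc8a1 (NCX1), the sodium-calcium exchanger of heart and smooth muscle, had control levels of 10.10, 9.56, 9.99 and 9.92 and cKO levels of 10.68, 10.32, 10.22 and 10.16. The cKO RNAs were all above the controls, with the highest control, of array 1, just below the lowest cKO, of array 4. Its ratios were 0.58, 0.76, 0.23 and 0.23, a mean of 0.45 ± 0.26 (adjusted p = 0.0738), and its other 2 probes gave 0.34 ± 0.15 and 0.26 ± 0.14. Slc24a3 (NCKX3), which exchanges sodium for calcium and potassium, had control levels of 14.05, 14.50, 14.55 and 14.46 and cKO levels of 14.70, 14.84, 14.72 and 15.05, again without overlap. Its ratios were 0.64, 0.34, 0.17 and 0.59, a mean of 0.44 ± 0.22 (adjusted p = 0.0562). It passed in 4 of 17 alternatives and Slc8a1 in 2. Smooth muscle markers, all 10 of them above 0 and 0 called, had array medians of 0.26, 0.05, 0.04 and 0.19, highest on arrays 1 and 4 as for Slc24a3, and their part in these ratios was not tested. Slc8a2 (NCX2) had ratios of 0.61, -0.31, 0.32 and 0.38 (0.25 ± 0.40, adjusted p = 0.321), with the male pair below 0. Slc24a4 (NCKX4) had -0.13 ± 0.04 (0.204).

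Chloride cotransporters of the Slc12 family gave 0 calls among 7 tested genes, with a family median of -0.11. Slc12a8 came closest, with control levels of 11.04, 11.42, 11.22 and 11.41 and cKO levels of 10.23, 11.07, 10.98 and 10.79. On every array the cKO was lower, although the groups overlapped between 11.04 and 11.07. The ratios were -0.81, -0.35, -0.24 and -0.62, a mean of -0.51 ± 0.26 (adjusted p = 0.0544), and 5 of 17 alternatives took it past the threshold. A second probe of Slc12a8 gave -0.36 ± 0.21 with the same order of arrays. That order, lowest on array 1 and next on array 4, was also the order of the superficial urothelial medians at their lower end (-0.99 and -0.60), a relation not tested. The potassium-chloride cotransporter Slc12a7 (KCC4) split likewise, at -0.45 and -0.42 on arrays 1 and 4 and -0.01 and -0.05 on arrays 2 and 3 (-0.23 ± 0.23, adjusted p = 0.253). Slc12a2 (NKCC1), the sodium-potassium-chloride importer, had -0.13 ± 0.09 (0.266). The kinases that switch these cotransporters, Wnk1 and Oxsr1, had -0.01 ± 0.16 (0.976) and -0.10 ± 0.13 (0.484), while the related kinase Stk39 (SPAK) rose 1.23-fold (0.30 ± 0.12, adjusted p = 0.0401). That call ended with any 1 array left out (adjusted p 0.0795 to 0.169).

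Acid-base carriers of the Slc4, Slc9 and Slc26 families gave 1 call among 25 tested. This was Slc26a10, with control levels of 8.54, 8.62, 8.64 and 8.78 and cKO levels of 8.72, 8.97, 8.78 and 9.10. Each cKO was above the control of its array, but the groups overlapped, with the highest control level equal to the cKO of array 3 at this precision. The ratios were 0.18, 0.36, 0.14 and 0.32, a mean of 0.25 ± 0.11 (adjusted p = 0.0459). The call was lost when any 1 array was left out (adjusted p 0.138 to 0.191) and in 8 of 17 alternatives in all, and a second, dimmer probe gave 0.10 ± 0.13 (0.416, adjusted over probes). The probe used lies at chr10:126610349-126610408 (mm9). Slc26a6, which exchanges chloride for oxalate and bicarbonate, had 0.14 ± 0.07 (0.173), and the sulphate carrier Slc26a11 had 0.18 ± 0.12 (0.187).

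In the Slc4 family, Slc4a8 (NDCBE) is the sodium-driven chloride-bicarbonate exchanger. It had control levels of 10.29, 10.29, 10.25 and 10.41 and cKO levels of 10.02, 10.18, 10.00 and 10.07. All cKO RNAs were below all controls, and the ratio was -0.24 ± 0.10 (adjusted p = 0.0789). Slc4a11 had -0.16 ± 0.07 (0.133). Slc4a1, the band 3 anion exchanger of red cells and of acid-secreting kidney cells, had the widest spread of the family: 1.02, 1.04, -0.19 and 0.22 (0.52 ± 0.61, adjusted p = 0.255). It was high on arrays 1 and 2 and low on arrays 3 and 4, as were the erythroid marker medians of 0.49, 0.48, -0.11 and 0.17, and the part of red cells in it was not tested. The chloride-bicarbonate exchanger Slc4a2 (AE2) had 0.03 ± 0.09 (0.809), and the sodium-bicarbonate cotransporter Slc4a7 (NBCn1) had 0.01 ± 0.16 (0.963).

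The sodium-proton exchangers of the Slc9 family gave 0 calls among 8 tested. Slc9a9 (NHE9), an endosomal exchanger, had -0.26, -0.14, -0.06 and -0.10 (-0.14 ± 0.09, adjusted p = 0.223). The epithelial exchangers Slc9a2 (NHE2) and Slc9a4 (NHE4) had ratios on both sides of 0. Slc9a2 had -0.58, 0.34, 0.28 and -0.18 (-0.04 ± 0.43) and Slc9a4 had -0.52, 0.66, 0.53 and 0.09 (0.19 ± 0.53), each lowest on array 1 and highest on array 2. The superficial urothelial medians of -0.99, -0.08, -0.25 and -0.60 had their lowest and highest values on these arrays too, and their part in the spread was not tested.

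**Figure D3:**
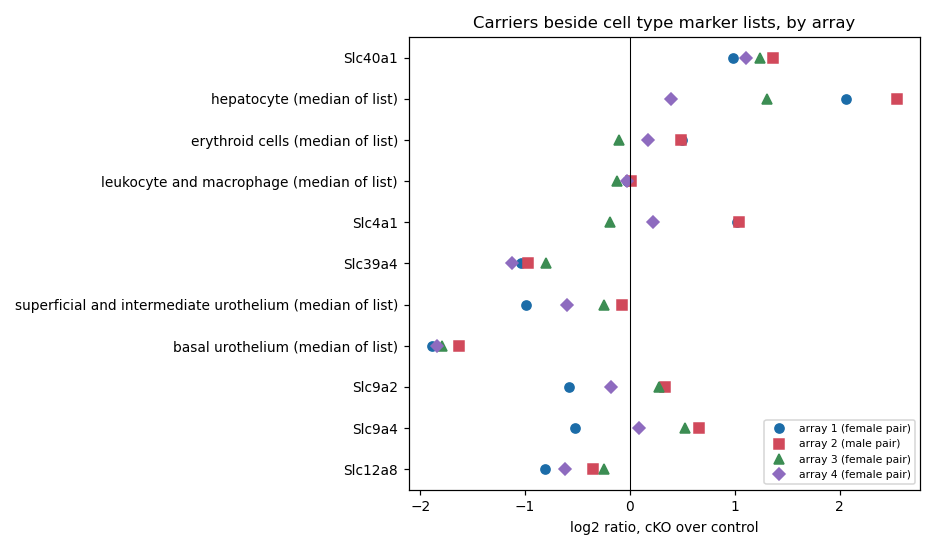
Log2 ratio (cKO over control) on each of 4 arrays for 6 carriers and for the medians of 5 cell type marker lists. Slc40a1 spans 0.98 to 1.36 and the hepatocyte median 0.39 to 2.55, both highest on array 2. Slc4a1 is high on the arrays with high erythroid medians, and Slc9a2 and Slc9a4 are lowest on array 1, where the superficial urothelial median is lowest.

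The phosphate and magnesium carriers gave 0 calls among 5 tested. The sodium-phosphate cotransporters Slc20a1 (PiT1) and Slc20a2 (PiT2) had 0.07 ± 0.18 (adjusted p = 0.606) and 0.07 ± 0.20 (0.655). The phosphate exporter Xpr1, no carrier of these families, fell 1.45-fold (-0.54 ± 0.09, adjusted p = 0.00597), with control levels of 13.69 to 13.78 and cKO levels of 13.12 to 13.27. The magnesium carrier Slc41a3 had 0.15 ± 0.07 (0.173) and Slc41a1 had -0.11 ± 0.06 (0.261), each with 1 sign on all 4 arrays.

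Of 18 carriers with several passing probes, 0 had more than 1 probe called, so calls in opposite directions could not occur. The mean ratios of a carrier's probes differed most for Slc4a9 (by 1.34 on the log2 scale), Slc30a7 (0.47) and Slc4a4 (0.26), and by at most 0.19 for the others, most of whose ratios were themselves small. Slc4a9 (AE4) is an anion exchanger of the Slc4 family. Its bright probe, which stands for the gene, had ratios of 0.17, 0.09, -0.03 and -0.19 (0.01 ± 0.16). Its dim probe had -1.27, -1.37, -1.47 and -1.20, a mean of -1.33 ± 0.12 (adjusted p = 0.00065 over probes, limma). The dim probe was lower in the cKO on all 4 arrays, and the bright probe had no common sign. With the mean of its probes Slc4a9 was among the genes called lower, so its ratio depends on the probe. Over probes, 4 of the carriers' 89 passing probes were called, 1 each of Slc40a1, Slc39a4, Slc26a10 and Slc4a9, beside 6.98% of all 28396 probes tested.

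**Figure D4:**
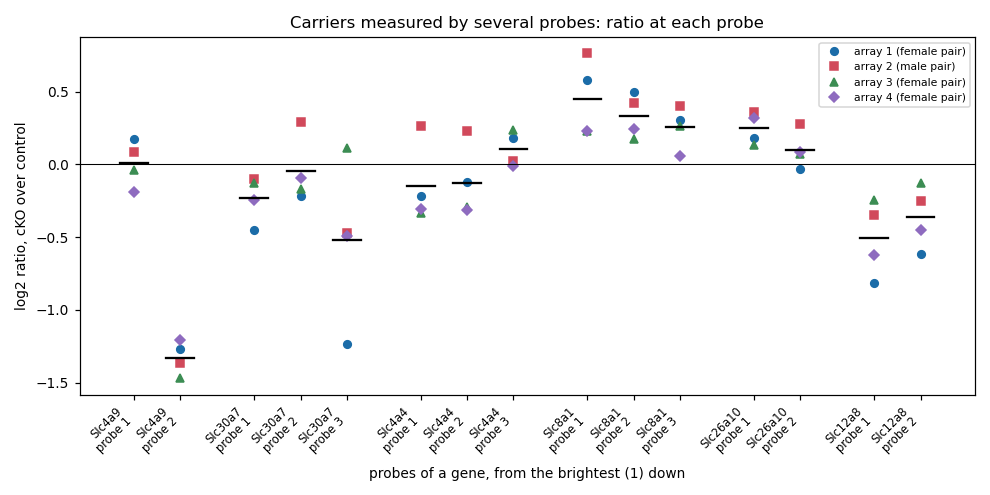
Log2 ratio (cKO over control) at each probe of 6 carriers measured by several probes, ordered from the brightest, with 1 point per array and a line at the mean. The probes of Slc8a1 and Slc12a8 lie on the same side of 0, and the dim probe of Slc4a9 lies between -1.47 and -1.20 while its bright probe lies around 0.

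Among the pumps, channels and regulators that work with the carriers, sodium channel subunits and a carbonic anhydrase rose. Of 48 tested ion transport partners 6 rose and 3 fell (18.8%, beside 8.55% of all genes), with a median of 0.04. The list was chosen with earlier results of these data known, so no conclusion is drawn from its larger share. Carbonic anhydrase Car2, which makes the bicarbonate and protons that acid-base carriers move, had control levels of 11.46 to 11.84 and cKO levels of 13.02 to 14.12. All cKO RNAs were above all controls, and it rose 3.95-fold, with ratios of 1.56, 2.29, 2.11 and 1.97 (1.98 ± 0.31, adjusted p = 0.00116). The epithelial sodium channel subunits Scnn1b and Scnn1a rose 2.56-fold (1.36 ± 0.24, adjusted p = 0.00255) and 2.26-fold (1.17 ± 0.29, adjusted p = 0.00602). The third subunit Scnn1g had ratios of 0.06, 0.44, 0.83 and 0.10 (0.36 ± 0.36, adjusted p = 0.202). Fxyd4, a regulator of the sodium pump, rose 3.09-fold (1.63 ± 0.33, adjusted p = 0.00267), and the calcium channel Trpv6 rose 1.83-fold (0.87 ± 0.29, adjusted p = 0.0129). For Car2, Scnn1b, Fxyd4, Scnn1a and Trpv6 alike, array 1 gave the lowest ratio.

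The partners that fell were of other kinds. Atp6v0a4, a subunit of the proton pump of acid-secreting cells, had control levels of 9.55 to 9.87 and cKO levels of 8.75 to 9.02 and fell 1.84-fold (-0.88 ± 0.06, adjusted p = 0.00153). Fxyd3, a sodium pump regulator of epithelia, had ratios of -1.59, -0.49, -0.84 and -0.98 and fell 1.97-fold (-0.97 ± 0.46, adjusted p = 0.0194, and 0.0703 without array 4). Xpr1, described above, was the other. The sodium pump subunit Atp1b1 had 0.39 ± 0.31 (0.102) and did not pass. The chloride channels Ano1 and Cftr had -0.15 ± 0.11 (0.220) and 0.04 ± 0.17 (0.725).

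Kidney collecting duct markers moved in both directions beside these partners. Of 16 tested, 4 rose (Avpr2, Tfcp2l1, Ret and Pax8) and 3 fell, among them Atp6v0a4 and Aqp3, with a median of -0.01 and summed intensities of 20829 to 27347 in controls and 15889 to 18983 in the cKO. Aqp3 was by far the brightest, at 13.81 to 14.43 in controls and 13.11 to 13.36 in the cKO, so the sums mostly reflect it. The water channel Aqp2, which defines principal cells, had -0.05 ± 0.08 (0.667), and Foxi1, which defines intercalated cells, had -0.07 ± 0.05 (0.469). The anion exchangers of intercalated cells, Slc4a1 and Slc26a4 (pendrin), had 0.52 ± 0.61 and 0.04 ± 0.11. Slc26a4 was dim, at 6.78 to 7.27 in controls and 6.87 to 7.28 in the cKO. Of 10 tubule and podocyte markers of the nephron 1 was called: Cubn, an uptake receptor of the proximal tubule, rose 4.83-fold, with ratios of 1.54, 2.64, 2.64 and 2.27 (adjusted p = 0.0031, limma). The median of the nephron list was -0.01, with 5 markers above 0 and 5 below. Its summed intensities, 23745 to 26203 in controls and 29324 to 34586 in the cKO, did not overlap, whereas Lrp2, the partner receptor of Cubn, had -0.08 ± 0.86. The bright marker Aqp1 in these sums, not called, stood at 14.30 to 14.40 in controls and 14.28 to 14.69 in the cKO. The part of kidney RNA in the partners' ratios was not tested.

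Of 39 tested metal handling partners 2 rose and 2 fell (10.3%, beside 8.55% of all genes), with a median of -0.03. Cp and Tfr2 are given above. Atp2c2, a Golgi pump for calcium and manganese, had ratios of -0.89, -0.92, -0.96 and -0.91 and fell 1.90-fold (-0.92 ± 0.03, adjusted p = 0.00112), among the evenest of the values over the 4 arrays. Atp13a2, a lysosomal ATPase, fell 1.48-fold (-0.56 ± 0.15, adjusted p = 0.0122, and 0.0565 without array 4). The copper carriers Atp7a and Slc31a1 had 0.22 ± 0.10 (0.0952) and -0.07 ± 0.09 (0.583).

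**Figure D5:**
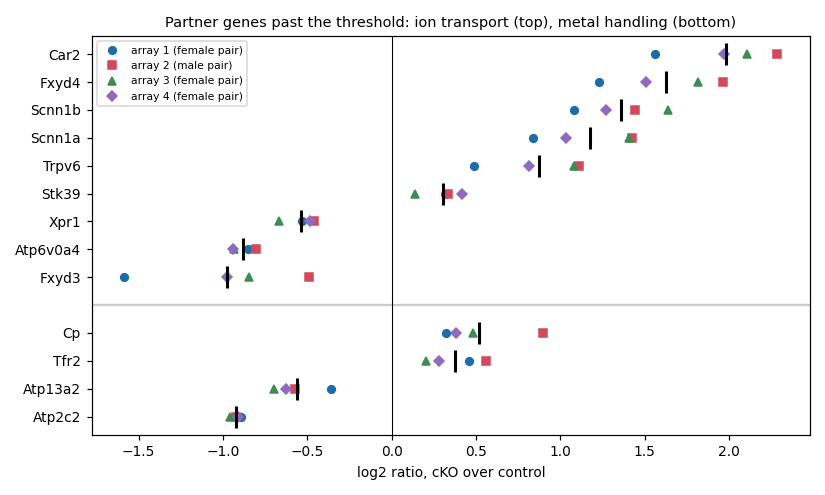
Log2 ratio (cKO over control) on each of 4 arrays, with a black tick at the mean, for the 9 ion transport partners and the 4 metal handling partners past an adjusted p of 0.05. Car2, Fxyd4, Scnn1b, Scnn1a and Trpv6 lie to the right with array 1 lowest, and Atp6v0a4 and Atp2c2 have the narrowest spreads.

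The 13 carriers that were not tested were Slc4a10, Slc9a3, Slc12a1, Slc12a3, Slc24a1, Slc26a3, Slc26a5, Slc26a9, Slc30a3, Slc30a8, Slc30a10, Slc39a5 and Slc39a12. Among them are the apical sodium and chloride carriers of the kidney tubule, Slc9a3 (NHE3), Slc12a1 (NKCC2) and Slc12a3 (NCC). Slc24a1, Slc30a3 and Slc4a10 were not well above background in any RNA, and 4 of the 13 were above it on 3 arrays in 1 genotype or both, such as Slc30a10, a manganese exporter, on 0 control and 3 cKO arrays. Probes of Y-linked genes in the 6 RNAs of the female pairs, which hold no such transcript, read 5.93 to 6.83. Of the 64 tested carriers 0 had both genotype means in that range, but Slc26a8 had its control mean at 6.83 and its cKO mean at 6.84, and single RNAs of Slc24a2 read as low as 6.66.

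The ratios of the male pair could be set against those of the 3 female pairs only roughly, with 1 male pair. In limma with a term for the male pair, which leaves 1 residual degree of freedom, 0 of the 64 carriers and 0 of all genes were called, with a lowest adjusted p of 0.909 among the carriers. At an unadjusted p under 0.05 stood 3 carriers, Slc24a5, Slc4a4 and Slc8a2, and 861 of all genes (4.74%).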

How the data were processed

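Ureter RNA of 4 ΔNp63-cKO and 4 control embryo samples was hybridised in pairs to 4 Agilent arrays, 1 RNA in each colour, with 200 ng of total RNA amplified per labelling, per the labels. Per the file headers, the authors' scanner software was Agilent Feature Extraction 10.7.3.1; the deposited intensity values are its mean spot and local background signals, and the deposited log2 values of the separate table have a median of 0 on each array and follow the scanner's processed ratio, turned to cKO over control, with a slope of 0.990 to 1.00. Whether they were centred by the authors in another way is not stated.

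From the intensities, limma 3.58.1 (R 4.3.3) applied normexp with offset 50 and loess within arrays, control spots having weight 0. Outlier spots (3.04% to 3.58%) were left out and no spot was saturated. Median signals were 460.3 to 530.6 (green) and 550.8 to 607.3 (red). More spots were well above background on array 1 (90.0% green, 82.6% red) than on the others (75.0% to 76.5% and 72.4% to 72.9%). A gene was tested if its probe was well above background in over 0.5 of its spots on all 4 arrays in at least 1 genotype, and its brightest probe stands for it. The fit on ratios had a dye term and 2 residual degrees of freedom. Levels of single channels were scaled with Aquantile. The number of arrays limits the precision. The fit was tested on simulated data. Symbols of 28328 probes were updated by accession, of 3400 by symbol and of 243 by older symbol in RefSeq tables, and the carriers were taken by the symbol in the files.

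Named were Trp63, every carrier past the threshold, every other carrier with 1 sign on 4 arrays and a mean change of at least 1.5-fold, the 2 tested carriers with the lowest p in each family and up to 6 called genes per partner list and direction; other names were chosen after their values were seen, and a few genes that the rule names or the lists hold are not reported here. The carriers, partner lists and marker lists were chosen with earlier results of these data known. Alternatives were other background corrections, offset 16, other normalizations, the deposited table, the mean of probes, other filters, no dye term, each replicate left out and separate channels with and without a replicate block.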

Additional observations from a re-analysis of the deposited data

How the results depend on the processing

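Of the carriers, Slc40a1 was called in 17 of 17 alternatives (1.11 to 1.24) and Slc39a4 in 16 (-1.04 to -0.93); Slc26a10 was called in 9, Slc12a8 in 5, Slc24a3 in 4 and Slc8a1 in 2. The count of carriers that rose, 2 as reported, was 1 with median centring, with the deposited table, with the mean of all probes and with separate channels and no replicate block, 4 with no dye term, 7 with the replicate block, and 1 to 2 with a replicate left out. With scaling of the arrays, Slc24a3 rose besides Slc40a1 and Slc26a10. The count that fell, 1 as reported, was 2 under median centring, scaling of the arrays or averaging of probes, 3 with no dye term, 4 with the replicate block, 0 without it, and 1 to 2 with a replicate left out. The cause of these changes was not tested. Over all genes, 530 rose and 1023 fell as reported, and 1237 and 1731 with the block, 120 and 438 without it, and 259 and 596 with the deposited table. Over all genes 277 rose without replicate 1, 287 without replicate 3 and 297 without replicate 4, and 584 and 554 fell without replicates 1 and 4. Of the ion transport partners 3 rose without the block and 5 fell with it. Of the metal handling partners the count that rose, 2 as reported, was 0 with the deposited table, without replicate 2, without replicate 3 and without the block, 1 with median centring, without the filter on dim probes and without replicate 4, and 5 with the block, and the count that fell was 1 without replicate 4 and without the block. No named carrier that was called changed sign in any alternative. With 4 pairs, the 95% interval of 56 of 64 carriers reached no further than 1.41-fold from no change, and signal over background left 13 carriers untested.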
